A study of Mus musculus with 32 samples.

Results

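The 54 genes described here code for oxidative phosphorylation proteins: 13 genes of the mitochondrial genome, whose symbols begin with mt-, and 41 nuclear partners. They were found by symbol among the 55487 gene rows of the deposited table, all 54 were matched, and all 54 were among the 14903 genes with enough counts to be tested. By complex, the nuclear genes are 20 of complex I, 4 of complex II, 6 of complex III, cytochrome c, 6 of complex IV and 4 of ATP synthase. The RNA came from whole mouse liver, in 4 groups of 8 libraries that combine genotype and diet. FAAH S268D NASH-AA and FAAH S268D NASH carried the S268D form of FAAH, a hydrolase of fatty acid amides such as anandamide, and WT NASH-AA and WT NASH were wild type. The series text has all mice, the controls included, on HFFC for 28 weeks, some with ARA added, so no group was on an ordinary diet. The sample labels name the diets only as NASH-AA and NASH and do not spell out that AA is the ARA of the series text. The sources used here do not give how the S268D mice were made, whether WT mice were littermates, or strain, age and sex. The labels do not tie the 8 libraries of a group to 8 animals, so a p-value here is set against the spread between samples, part of which may be technical.

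Oxidative phosphorylation takes place in the inner mitochondrial membrane. Complexes I and II pass electrons from NADH and succinate to ubiquinone, complex III passes them on to cytochrome c, and complex IV passes them to oxygen. Complexes I, III and IV pump protons, and ATP synthase uses the return flow to make ATP. Most subunits are coded in the nucleus and imported, while a small core of complexes I, III, IV and ATP synthase is coded by mitochondrial DNA, so each of these enzymes needs both genomes. Complex II, which is also succinate dehydrogenase of the citric acid cycle, is coded by the nucleus alone. Hepatocytes are rich in mitochondria and use them for fatty acid oxidation, gluconeogenesis and urea synthesis.

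Nuclear subunit genes have promoters in which binding words of NRF1, GABP and YY1 have often been described, and 31 of the 41 nuclear genes had a sequence from 250 bases before to 50 bases after the start in RefSeq (GRCm38.p6). The promoters of 3 genes are shown 5′ to 3′ on the gene's strand, with capitals marking the words searched: Sdhb and Uqcrc1, which passed a test below, and Uqcrh, which passed none but lies beside Faah. All 3 hold a searched word, so they are examples and not typical of the 31. Sdhb is at chr4:140961021-140961320 on the plus strand, Uqcrc1 at chr9:108936398-108936697 on the plus strand and Uqcrh at chr4:116075021-116075320 on the minus strand.
Sdhb: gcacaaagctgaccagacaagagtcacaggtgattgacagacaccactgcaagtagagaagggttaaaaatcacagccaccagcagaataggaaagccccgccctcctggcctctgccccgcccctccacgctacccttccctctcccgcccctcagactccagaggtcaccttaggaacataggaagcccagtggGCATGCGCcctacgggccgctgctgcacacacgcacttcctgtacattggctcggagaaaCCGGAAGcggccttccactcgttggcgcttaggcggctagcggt
Uqcrc1: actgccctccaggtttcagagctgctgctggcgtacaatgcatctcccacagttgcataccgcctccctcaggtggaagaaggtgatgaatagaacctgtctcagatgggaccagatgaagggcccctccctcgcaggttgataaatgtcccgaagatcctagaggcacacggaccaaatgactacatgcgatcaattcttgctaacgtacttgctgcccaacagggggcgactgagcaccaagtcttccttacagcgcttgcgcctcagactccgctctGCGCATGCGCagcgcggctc
Uqcrh: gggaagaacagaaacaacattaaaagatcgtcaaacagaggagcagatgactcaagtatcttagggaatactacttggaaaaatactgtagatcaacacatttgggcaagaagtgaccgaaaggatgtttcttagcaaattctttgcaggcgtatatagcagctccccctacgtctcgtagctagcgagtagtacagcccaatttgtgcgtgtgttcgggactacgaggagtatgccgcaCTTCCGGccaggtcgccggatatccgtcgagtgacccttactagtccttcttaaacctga
The words were searched on both strands, and positions count from 1 at the RefSeq start, with bases before it negative. The NRF1 word GCATGCGC begins at position -54 of Sdhb and, as 2 overlapping copies on opposite strands, at positions 31 and 33 of Uqcrc1. The word CCGGAAG of GABP and other ETS factors begins at position 7 of Sdhb and, on the opposite strand, at position -10 of Uqcrh. The NRF1 word was present in 4 of the 31 genes (12.9%), against 2.71% of 32851 promoters of all genes. The ETS word was present in 6 (19.4%, against 8.86%), the YY1 word AAGATGGCG in 4 (12.9%, against 1.4%) and the ERR word TCAAGGTCA in 1, Sdhd (3.23%, against 0.423%). A gene of the 31 counted if any of its promoters held the word, while the share over all genes is per promoter. The 2 percentages are therefore not quite the same measure. A match describes the letters in this window and is no evidence of binding.

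Mitochondrial genes are packed closely. Some share bases or have near-identical copies in nuclear DNA, both of which bear on how reads were counted. The overlap of mt-Atp8 and mt-Atp6, 43 bases at chrM:7927-7969, is shown with the start codon of mt-Atp6 and the stop codon of mt-Atp8 in capitals. The junction of mt-Nd4l and mt-Nd4 at chrM:10147-10193 is shown with the 7 shared bases in capitals. The last stretch, chrM:8968-9027, lies inside mt-Co3 and inside a run of 783 of its 784 bases that is also found, without a difference, in Gm28437, a pseudogene on chromosome 1 (24613189 to 24613971). All are on the plus strand, from GENCODE transcripts on GRCm38.
mt-Atp8 and mt-Atp6: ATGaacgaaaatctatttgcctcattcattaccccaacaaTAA
mt-Nd4l and mt-Nd4: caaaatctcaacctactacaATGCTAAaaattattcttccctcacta
mt-Co3 and Gm28437: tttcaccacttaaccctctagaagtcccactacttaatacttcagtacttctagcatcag
In all, 7 mitochondrial genes had such nuclear copies, found as at least 20% of shared 31-base words. For 5 of them (mt-Co2, mt-Co3, mt-Atp6, mt-Nd3 and mt-Nd4l) the copy on chromosome 1 held between 98.1% and 99.9% of the gene's words. For these 5 the copies held a large part of the counts. Over 32 libraries Gm28661 had a median of 73261 counts against 61807.5 for mt-Co2 itself, and Gm28437 had 72452 against 68838.5 for mt-Co3, while Gm10925 had fewer than its gene, 56040.5 against 77386 for mt-Atp6. The partial copies of mt-Co1 and mt-Nd4 held far less, with 35413 counts in Gm29216 against 478034 for mt-Co1 and 1446.5 in Gm28439 against 150146 for mt-Nd4. Of the sum of gene and copies, the copies held from 42.3% for mt-Atp6 to 59.2% for mt-Nd3 over the 5 genes, so reads of gene and copy cannot be told apart.

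Libraries held between 3851632 and 34370191 counts. The shallowest was FAAH S268D NASH replicate 1, and the next held 14743263 counts. Hepatocyte markers summed to between 57530 and 102608 CPM in each library, while the 3 markers each of exocrine pancreas and adipocytes summed to at most 0.204 CPM. Faah mRNA itself had medians of 178 CPM in FAAH S268D NASH-AA, 185 CPM in FAAH S268D NASH, 156 CPM in WT NASH-AA and 151 CPM in WT NASH, which checks no label, since a substitution need not change the amount of mRNA. CPM below are normalised for library size and composition, and a fold change is a log2 value ± SE. The test was limma-voom, with p-values adjusted over 14903 genes by the Benjamini-Hochberg method and called below 0.05.

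The 13 mitochondrial genes together made up 6.52% ± 0.574 of all counts in FAAH S268D NASH-AA and 6.16% ± 0.519 in FAAH S268D NASH. They made up 6.47% ± 0.595 in WT NASH-AA and 6.19% ± 0.484 in WT NASH (SD, n = 8 each). The 41 nuclear mRNAs together made up 0.725% ± 0.0258 in FAAH S268D NASH-AA, 0.743% ± 0.0538 in FAAH S268D NASH, 0.718% ± 0.0303 in WT NASH-AA and 0.708% ± 0.0269 in WT NASH. The mitochondrial share overlapped between every pair of groups compared.

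Per kb of exon, mt-Co1, the catalytic subunit of complex IV, stood highest at 13386 ± 1788 CPM per kb over the 32 libraries (SD). Next came mt-Cytb, the cytochrome b of complex III, at 9730 ± 1438 CPM per kb. A group of 4 then lay within one another's spread, with mt-Atp6 at 4945 ± 867, mt-Nd1 at 4925 ± 689, mt-Nd4 at 4794 ± 687 and mt-Nd2 at 4577 ± 658 CPM per kb. The lowest were mt-Nd3 at 466 ± 92.5 CPM per kb and mt-Nd6 at 81.4 ± 25.5 CPM per kb. mt-Nd6 is the 1 gene of the 13 coded on the minus strand, and it overlaps the end of mt-Nd5 on the other strand. The libraries were made from polyA RNA, so this order is one of counts and need not be that of transcript amounts. With the copies' counts added, mt-Co2 moved up to rank 3 at 8733 ± 1276 CPM per kb, ahead of mt-Atp6 at 8549 ± 1316 and mt-Co3 at 7910 ± 1085 CPM per kb. The order of the middle ranks therefore rests on how copies were counted, while mt-Co1 and mt-Cytb led either way.

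**Figure D1:**
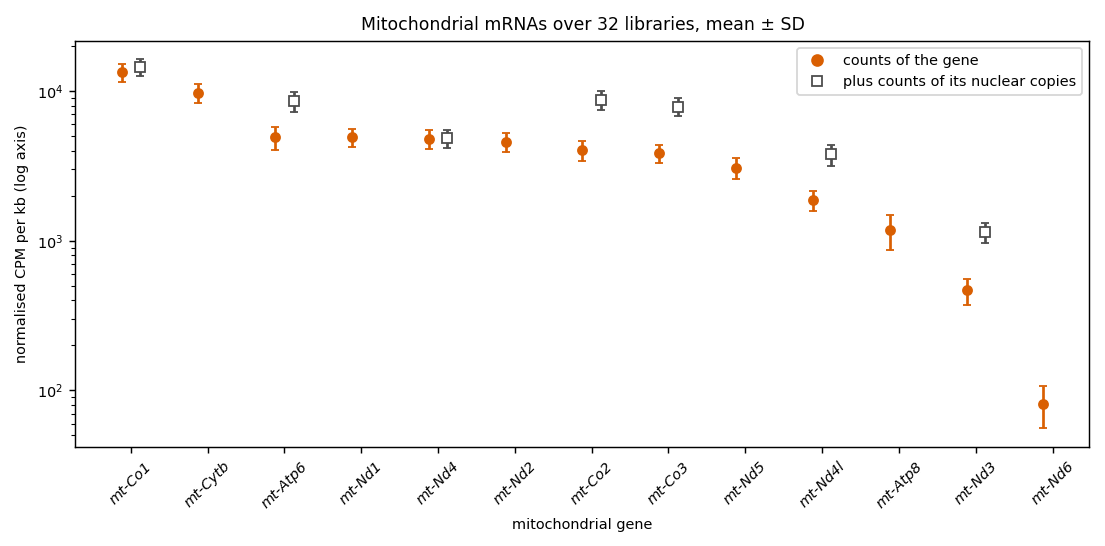
Mean ± SD over 32 libraries of each mitochondrial gene in normalised CPM per kb, on a log axis. Filled circles are the gene's own counts and open squares include the counts of its nuclear copies, which raise mt-Co2 to 8733 and mt-Nd3 to 1143 CPM per kb.

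Among nuclear genes, the 2 large subunits of the ATP synthase head led, Atp5a1 at 290.1 ± 27.6 and Atp5b at 258 ± 19.4 CPM per kb of exon. Cox4i1, a regulatory subunit of complex IV, followed at 192 ± 26.5 CPM per kb. The lowest was Ndufb5, an accessory subunit of complex I, at 11.9 ± 2.07 CPM per kb. These genes at the ends of the order were chosen after their values were seen, and exon length here is the union over transcripts, which lowers the value of genes with long rare exons. Within groups, the median SD of log2 CPM was 0.178 for nuclear and 0.204 for mitochondrial genes, against 0.245 for all genes tested. These sets were not matched for level, and all genes tested include genes of low counts.

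On the NASH diet, nuclear oxidative phosphorylation mRNAs had small positive estimates in FAAH S268D over wild type, and Sdhb a larger one. The test called 10 of 54 genes higher and 0 lower, where it called 2.89% of all genes higher, 6.29% lower and 9.18% in either direction. An unadjusted p under 0.05 was found for 38 of 54, where 25.7% of all genes had one. All 10 were nuclear, 3 of complex I, 2 of complex II, 2 of complex III, 1 of complex IV and 2 of ATP synthase. The estimate was positive for 41 of 41 nuclear genes with a median of 0.22 (log2), and for 11 of 13 mitochondrial genes with a median of 0.10. Over all genes tested the median was 0 and 50.1% were positive. Genes measured in the same libraries can move together, so counts of signs, here and in the comparisons below, are not counts of independent results. These estimates are after normalisation for composition. As unnormalised shares of all counts, the nuclear genes had means of 0.743% in FAAH S268D NASH and 0.708% in WT NASH. The mitochondrial genes had 6.16% and 6.19%, so their mean share was not higher in FAAH S268D.

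Sdhb codes for the iron-sulfur subunit of complex II. It lay between 161 and 300.1 CPM with a median of 222 in FAAH S268D NASH, against 120 to 166 CPM with a median of 149 in WT NASH. Of the FAAH S268D libraries, 7 of 8 were above the highest WT library, and the groups overlapped by 1 library. The fold change was 0.62 ± 0.10 (adjusted p = 0.000491), and it remained past the threshold with each of the 32 libraries left out, between 0.55 and 0.68. Sdhc, which anchors complex II in the membrane, lay between 133 and 191 CPM with a median of 154 in FAAH S268D NASH, against 124 to 154 with a median of 134 in WT NASH (0.22 ± 0.07, adjusted p = 0.037). For Sdhc, 3 of 8 FAAH S268D libraries lay above the WT range and 7 above the WT median. The other 2 subunits did not pass: Sdha, the flavoprotein, had 0.13 ± 0.07 (adjusted p = 0.236) and Sdhd, the second anchor, 0.10 ± 0.08 (adjusted p = 0.471).

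In complex I, Ndufv1, which binds NADH and FMN, lay between 123 and 177 CPM with a median of 143 in FAAH S268D NASH, against 112 to 144 CPM with a median of 124 in WT NASH. The fold change was 0.24 ± 0.06 (adjusted p = 0.0179), with 7 of 8 FAAH S268D libraries above the WT median. Ndufa9, an accessory subunit near the junction of the 2 arms, ran from 81.3 to 118 CPM with a median of 92.2 in FAAH S268D NASH, against 72.3 to 94.9 with a median of 80.9 in WT NASH (0.22 ± 0.07, adjusted p = 0.0333). Ndufb9, an accessory subunit of the membrane arm, ran from 117 to 212 CPM with a median of 152 in FAAH S268D NASH, against 112 to 154 with a median of 120 in WT NASH (0.30 ± 0.09, adjusted p = 0.0383). The highest FAAH S268D libraries lay well above the WT range for all 3, and the lowest lay within it. The other 17 nuclear complex I genes had estimates from 0.10 for Ndufs4 to 0.31 for Ndufb10 and did not pass.

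Complex III had 2 genes past the threshold. Uqcrc1, a core protein, ran from 204 to 286 CPM with a median of 237 in FAAH S268D NASH, against 179 to 245 CPM with a median of 198 in WT NASH (0.22 ± 0.06, adjusted p = 0.0244). Uqcrfs1, the Rieske iron-sulfur protein, ran from 130 to 198 CPM with a median of 157 in FAAH S268D NASH, against 116 to 161 with a median of 132 in WT NASH (0.22 ± 0.07, adjusted p = 0.0457). All 8 FAAH S268D libraries exceeded the WT median for Uqcrc1 and 7 of 8 did for Uqcrfs1. Of complex IV, only Cox5b, a nuclear subunit that binds zinc, passed. It ran from 128 to 238 CPM with a median of 153 in FAAH S268D NASH, against 117 to 158 with a median of 135 in WT NASH (0.29 ± 0.09, adjusted p = 0.0457), and 6 of 8 FAAH S268D libraries exceeded the WT median.

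In ATP synthase, Atp5a1, the alpha subunit of the catalytic head, ran from 833 to 1152 CPM with a median of 925 in FAAH S268D NASH, against 709 to 980 with a median of 826 in WT NASH (0.19 ± 0.06, adjusted p = 0.0377). Atp5c1, the gamma subunit that turns inside the head, ran from 157 to 251 CPM with a median of 185 in FAAH S268D NASH, against 146 to 188 with a median of 162 in WT NASH (0.24 ± 0.08, adjusted p = 0.0399). For Atp5a1 all 8 FAAH S268D libraries exceeded the WT median and 2 the WT range, and for Atp5c1 7 and 4 did. Atp5b, the beta subunit, had 0.15 ± 0.05 (adjusted p = 0.0805) and Atp5d, the delta subunit, 0.24 ± 0.09 (adjusted p = 0.0673), neither past the threshold. Cycs, cytochrome c, had 0.15 ± 0.07 (adjusted p = 0.188), and Gm10053, a coding gene on chromosome 19, holds 26.2% of its words.

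By limma-voom, 0 of the 13 mitochondrial genes passed on the NASH diet and 1, mt-Cytb, had an unadjusted p under 0.05. mt-Cytb had the smallest p, with 9475 to 16016 CPM and a median of 11377 in FAAH S268D NASH, against 7767 to 12757 CPM and a median of 9524 in WT NASH (0.24 ± 0.09, adjusted p = 0.0942). mt-Nd4, a proton-pumping subunit of complex I, ran from 5813 to 9087 CPM with a median of 6415 in FAAH S268D NASH, against 5112 to 7620 with a median of 5789 in WT NASH (0.17 ± 0.09, adjusted p = 0.265). mt-Co1 ran from 15854 to 27779 CPM with a median of 20347 in FAAH S268D NASH, against 16660 to 23917 with a median of 17958 in WT NASH (0.12 ± 0.09, adjusted p = 0.441). For each of these 3, at least 7 of 8 FAAH S268D libraries lay above the WT median, and 1 above the WT range. mt-Nd1 and mt-Nd4l had estimates just under 0, at -0.03 ± 0.10 and -0.01 ± 0.11.

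**Figure D2:**
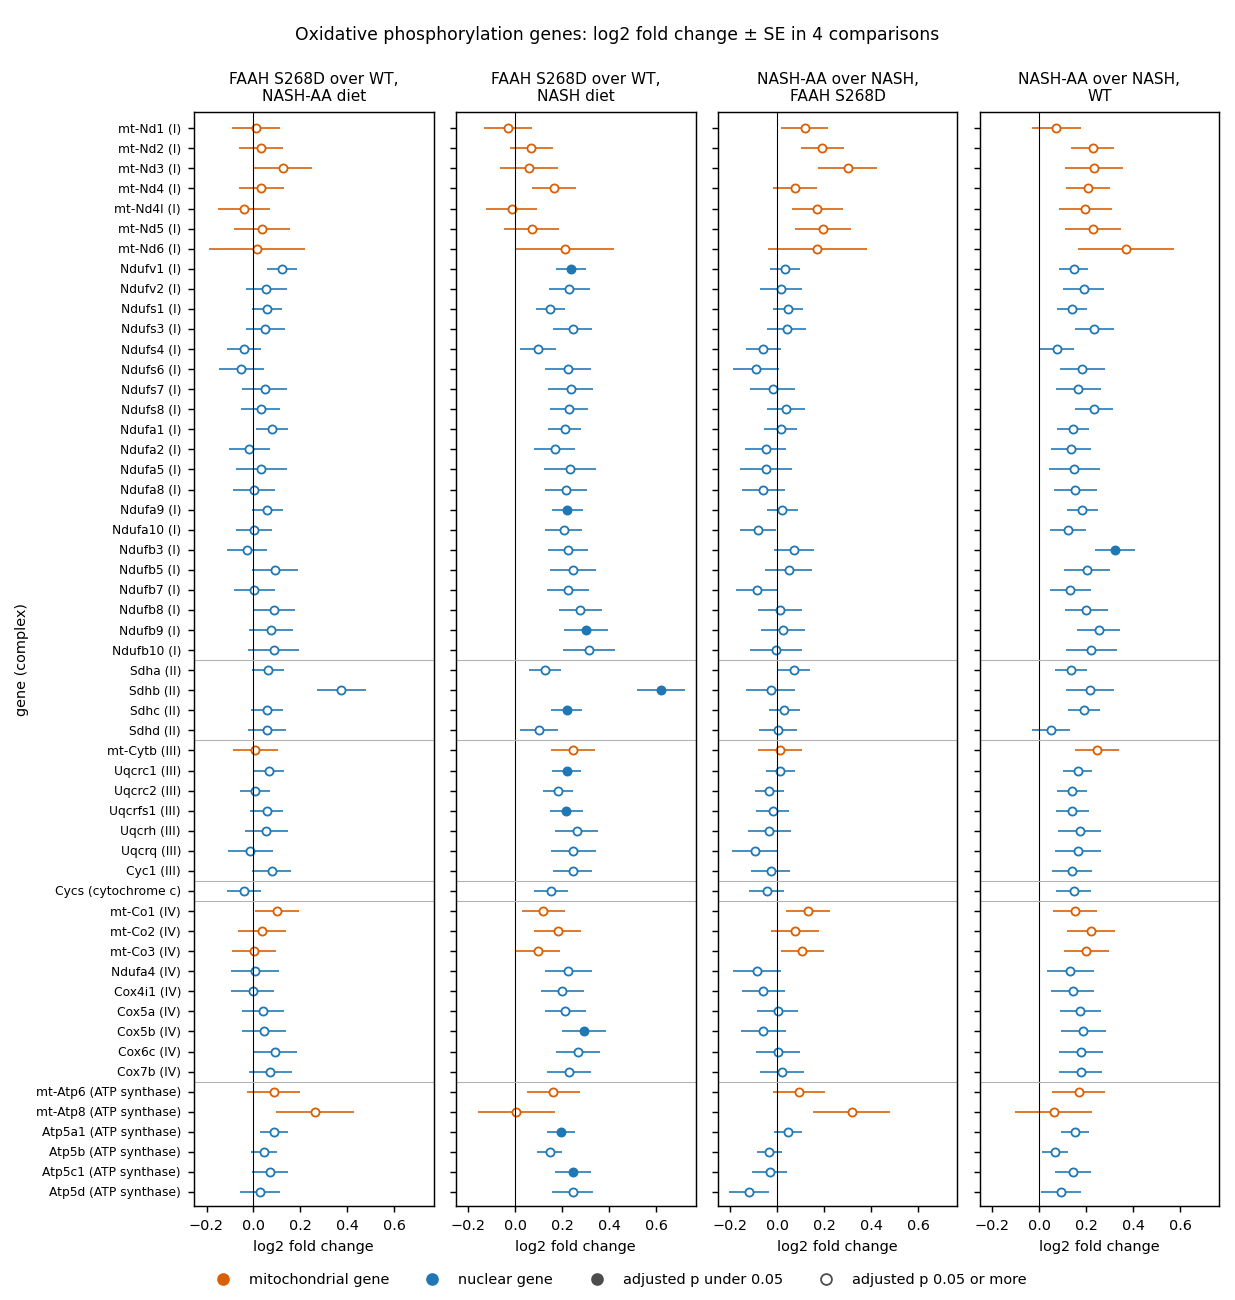
Log2 fold change ± SE of all 54 genes in 4 comparisons, by complex (roman numerals), with filled symbols for adjusted p under 0.05. On the NASH diet nearly all nuclear genes (blue) sit between 0.1 and 0.3 with Sdhb at 0.62, while in the diet comparison within FAAH S268D they scatter around 0 and the mitochondrial genes (orange) lie above it.

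The number of calls rested on single libraries, and the genes differed in this. With each of the 32 libraries left out in turn, Sdhb passed in all 32 fits, Ndufv1 in 31 and Uqcrc1 in 27. Ndufa9 and Atp5a1 passed in 24, Ndufb9 and Sdhc in 23 and Atp5c1 in 22. Uqcrfs1 passed in only 15 and Cox5b in only 11. With FAAH S268D NASH replicates 1 to 7 left out in turn, 5, 2, 2, 1, 32, 29 and 17 of the 54 passed, and with WT NASH replicates 2 to 8 left out, 3, 3, 2, 27, 6, 2 and 5. The median over nuclear genes moved less, between 0.18 and 0.27. The FAAH S268D NASH group was itself wide: relative to the mean over 32 libraries, the average nuclear gene stood at 0.43 and 0.42 (log2) in replicates 4 and 1, and at -0.21 in replicate 6. Replicate 1 is the shallowest library, and without it the count was 5 with a nuclear median of 0.19. Fitted with the 16 libraries of the 2 groups alone, 1 gene passed, Sdhb, and with no filter on low counts 4 passed.

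Library names carry numbers from 1 to 32 whose meaning the labels do not give, and the genotype estimates on NASH were read in each range of them, a difference that was not itself tested. Within numbers 1 to 16, with 5 FAAH S268D NASH and 4 WT NASH libraries, the nuclear median was 0.37 and 2 genes passed, Sdhb and Ndufv1. Within numbers 17 to 32, with 3 and 4 libraries, the nuclear median was 0.03 and 0 passed. With the range of numbers as a block, 8 passed. Sdhb was 0.38 within numbers 17 to 32 (adjusted p = 0.461) and 0.78 within numbers 1 to 16.

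**Figure D3:**
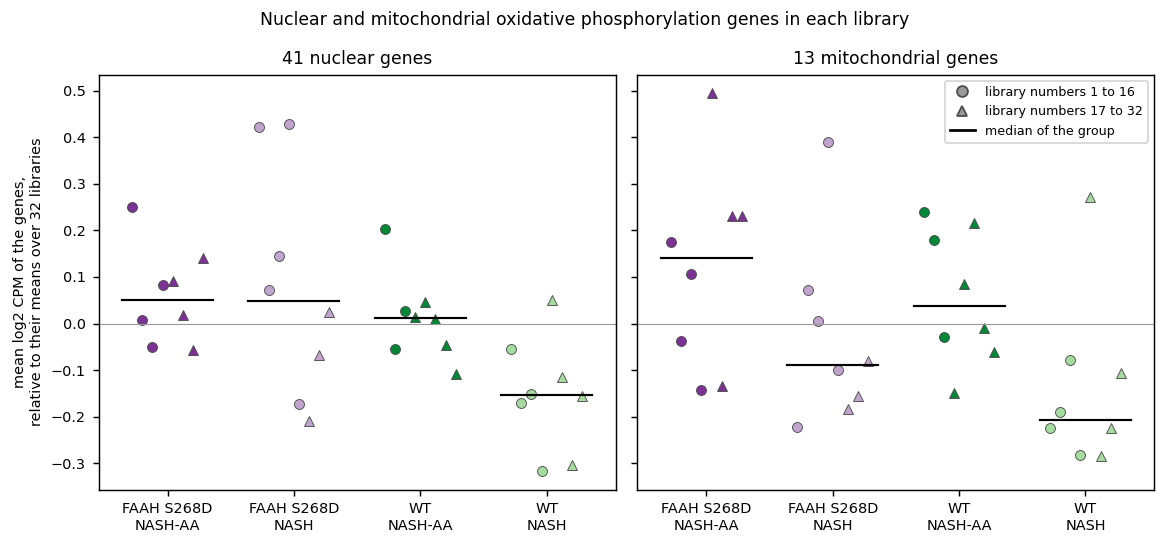
Mean log2 CPM of the 41 nuclear (left) and 13 mitochondrial genes (right) in each library, relative to their means over 32 libraries, with circles for library numbers 1 to 16 and triangles for 17 to 32. FAAH S268D NASH spans -0.21 to 0.43 for the nuclear genes, and WT NASH lies lowest with a median of -0.15.

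Markers of other cells moved with genotype on this diet. Of all genes tested, 2.89% were called higher and 6.29% lower, and 25.7% had an unadjusted p under 0.05. Of 12 macrophage and monocyte markers, 7 were lower in FAAH S268D, with a median of -0.94 (log2). They summed to between 317 and 607 CPM with a median of 504 in FAAH S268D NASH, against 451 to 1204 CPM with a median of 898 in WT NASH, and no marker was at 0. Of 5 T and NK cell markers tested, 4 were lower, with summed levels of 1.56 to 5.80 CPM in FAAH S268D NASH, against 2.90 to 9.81 CPM in WT NASH. Hepatocyte markers had a median of 0.34, with 2 of 11 higher and 1 lower, and summed to 63290 to 102608 CPM with a median of 78663 in FAAH S268D NASH, against 57530 to 83152 CPM with a median of 65404 in WT NASH. Stellate markers had a median of -0.54, with 0 of 6 called and 4 at an unadjusted p under 0.05, and the B cell, endothelial, cholangiocyte, erythroid, muscle and nuclear RNA lists held no call. In bulk liver, more cells of a type and more RNA per cell cannot be told apart. The part of cell makeup in the oxidative phosphorylation differences was not tested.

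On the NASH-AA diet the same genotype comparison was near 0. By limma-voom, 0 of 54 genes passed, where 0.658% of all genes did (0.349% higher and 0.309% lower), and 1 had an unadjusted p under 0.05, Sdhb, where 15.5% of all genes had one. limma-trend called 0 as well, and sample quality weights called 1, Sdhb. The median estimate was 0.05 over nuclear genes, with 34 of 41 positive, and 0.03 over mitochondrial genes, with 12 of 13 positive, against 0.002 and 50.6% positive over all genes tested. Ndufv1 ran from 138 to 160 CPM with a median of 151 in FAAH S268D NASH-AA, against 128 to 149 CPM with a median of 139 in WT NASH-AA (0.12 ± 0.06, adjusted p = 0.352). Uqcrc1 ran from 219 to 258 CPM with a median of 237 in FAAH S268D NASH-AA, against 213 to 250 CPM with a median of 226 in WT NASH-AA (0.07 ± 0.06, adjusted p = 0.65). Of the mitochondrial genes, mt-Atp8, a small subunit of the ATP synthase membrane part, had the highest estimate, 0.26 ± 0.16 (adjusted p = 0.461). Macrophage and monocyte markers had a median of -0.70 in this comparison, with 0 of 12 called.

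Sdhb had the highest estimate of the 54 genes on this diet too. It ran from 190 to 266 CPM with a median of 215 in FAAH S268D NASH-AA, against 154 to 192 CPM with a median of 166 in WT NASH-AA. The lowest FAAH S268D library lay just below the highest WT library, and the other 7 lay above it. The fold change was 0.38 ± 0.10 (adjusted p = 0.0827). The call turned with the fit: fitted with these 16 libraries alone, or with sample quality weights, Sdhb passed.

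Sdhb and Uqcrh lie on chromosome 4, which also carries Faah (115967145 to 116017926, GRCm38). Sdhb (140961203 to 140979193) is 24.94 Mb from Faah, and Uqcrh (116066965 to 116075071) is 49.04 kb from it. Of 605 genes within 40 Mb of Faah, 19.5% were called for genotype on the NASH diet, against 8.74% of 14298 other genes, and on NASH-AA 7.6% were, against 0.364%. Uqcrh, the hinge protein of complex III, had smaller estimates than Sdhb. It ran from 109 to 134 CPM with a median of 120 in FAAH S268D NASH-AA, against 106 to 125 with a median of 115 in WT NASH-AA (0.06 ± 0.09, adjusted p = 0.827). On the NASH diet it ran from 91.1 to 177 CPM with a median of 118 in FAAH S268D NASH, against 91.1 to 114 with a median of 101 in WT NASH (0.26 ± 0.09, adjusted p = 0.0685).

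The other nuclear subunits, a list of 40 genes outside the 54, held 1 gene on this chromosome with a change in the opposite direction. Ndufs5 (123712710 to 123718202), an accessory subunit of complex I that lies 7.695 Mb from Faah, ran from 28.1 to 35.2 CPM with a median of 30.4 in FAAH S268D NASH-AA, against 49.4 to 66.0 CPM with a median of 55.2 in WT NASH-AA. The groups did not overlap, as for 0.624% of all genes, and the fold change was -0.85 ± 0.09 (adjusted p = 4.18e-07). On the NASH diet Ndufs5 was lower as well (-0.67 ± 0.10, adjusted p = 4.85e-05), at 33.4 ± 10.5 CPM in FAAH S268D NASH and 49.3 ± 4.97 CPM in WT NASH (SD, n = 8 each). A pseudogene of Ndufs5 on chromosome 16 holds 26.5% of its words at a median of 67 counts, against 1019.5 for Ndufs5. Atpaf1, an assembly factor of ATP synthase at 115784812 to 115818828, was higher on the NASH diet (0.23 ± 0.06, adjusted p = 0.0114). Whether the place of Sdhb, Ndufs5 and Atpaf1 on the Faah chromosome plays a part was not tested.

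In wild type, diet estimates (NASH-AA over NASH) were small and positive for all 54 genes, of which 1 passed. The estimate was positive for 41 of 41 nuclear genes with a median of 0.15 and for 13 of 13 mitochondrial genes with a median of 0.21, against 51.1% of all genes tested with a median of 0.005. The test called 1 gene, where it called 4.41% of all genes (1.44% higher and 2.97% lower), and 21 genes had an unadjusted p under 0.05, where 24.4% of all genes did. These share the WT NASH libraries with the genotype comparison on NASH, so the 2 sets of values are not independent. The estimates are again after normalisation for composition. As unnormalised shares of all counts, the nuclear genes had means of 0.718% in WT NASH-AA and 0.708% in WT NASH. The mitochondrial genes had 6.47% and 6.19%. Ndufb3, an accessory subunit of the complex I membrane arm, was the gene called. It ran from 37.0 to 47.9 CPM with a median of 40.8 in WT NASH-AA, against 28.8 to 40.2 CPM with a median of 32 in WT NASH. Of the WT NASH-AA libraries, 5 of 8 lay above the WT NASH range, and the fold change was 0.32 ± 0.08 (adjusted p = 0.0328).

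The single call rested on single libraries. Without WT NASH-AA replicate 1, 3, 4, 5, 7 or 8, or WT NASH replicate 2, 3, 4, 7 or 8, it was 0, and without WT NASH replicate 5 it was 11. limma-trend, a replicate block, no filter on low counts, and either range of library numbers gave 0, the 2 groups alone gave 5, and sample quality weights gave 32. The nuclear median stayed between 0.13 and 0.19 with any library left out, and was 0.24 within numbers 1 to 16 and 0.11 within numbers 17 to 32. Ndufs8, an iron-sulfur subunit of complex I, was the 1 gene of the 54 whose groups did not overlap in any comparison, as for 0.282% of all genes in this one. It ran from 57.1 to 70.1 CPM in WT NASH-AA, against 45.6 to 57 CPM in WT NASH (0.23 ± 0.08, adjusted p = 0.0762), and was named after its values were seen.

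Other genes described for genotype did not pass for diet in wild type. Sdhb ran from 154 to 192 CPM in WT NASH-AA, against 120 to 166 CPM in WT NASH (0.22 ± 0.10, adjusted p = 0.188). mt-Cytb ran from 10448 to 14117 CPM with a median of 11333 in WT NASH-AA, against 7767 to 12757 CPM with a median of 9524 in WT NASH (0.25 ± 0.09, adjusted p = 0.107). mt-Co1 ran from 18377 to 24175 CPM with a median of 20830 in WT NASH-AA, against 16660 to 23917 with a median of 17958 in WT NASH (0.15 ± 0.09, adjusted p = 0.32). For all 3, all 8 WT NASH-AA libraries exceeded the WT NASH median, and the ranges overlapped. Of all genes tested, 1.44% were called higher and 2.97% lower for diet in wild type. Macrophage and monocyte markers had a median of -0.62 in this comparison, with 1 of 12 lower. They summed to 497 to 694 CPM in WT NASH-AA, against 451 to 1204 CPM in WT NASH. Hepatocyte markers had a median of 0.28, with 1 of 11 higher and 1 lower, and summed to 69120 to 91798 CPM in WT NASH-AA, against 57530 to 83152 CPM in WT NASH. Their part in the diet values was not tested.

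**Figure D4:**
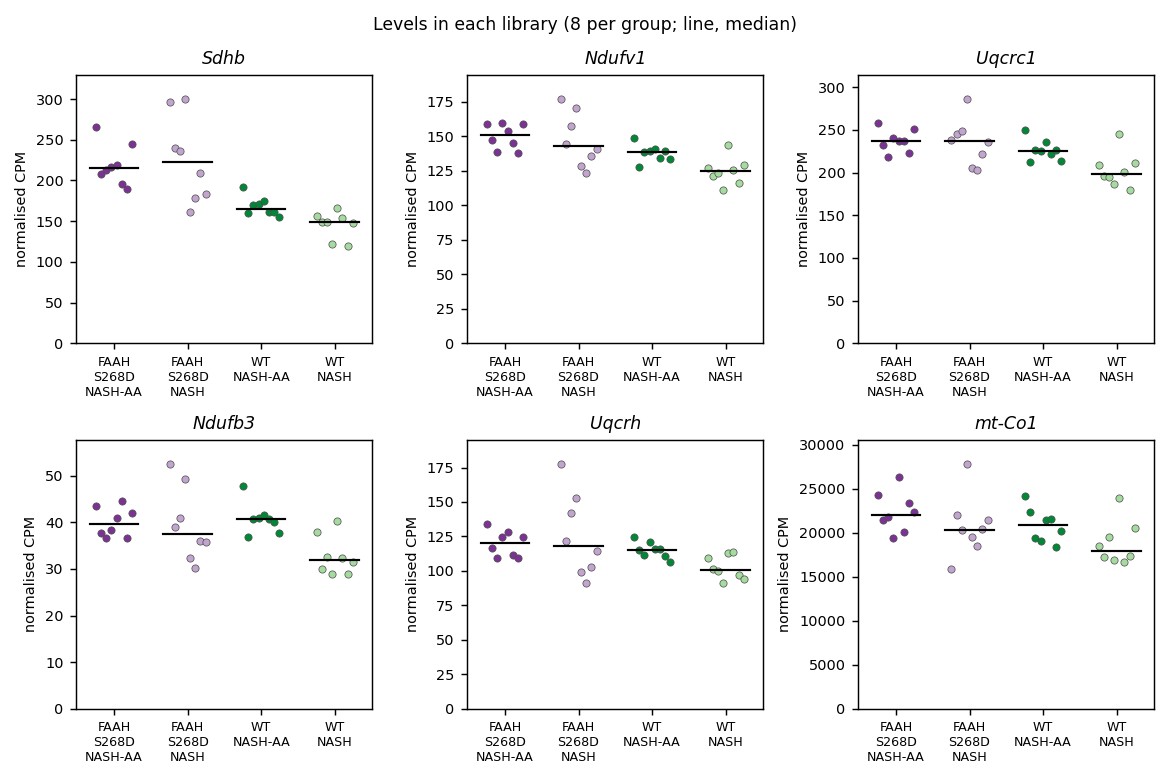
Normalised CPM of 6 genes in each library, with the median of each group as a line. Sdhb is higher in both FAAH S268D groups (medians 215 and 222 CPM) than in the WT groups (166 and 149), while Ndufv1, Uqcrc1, Ndufb3, Uqcrh and mt-Co1 are lowest in WT NASH.

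In FAAH S268D, diet left the nuclear genes near 0 while the mitochondrial genes all had positive estimates. By limma-voom, 0 of 54 genes passed, where 0.0939% of all genes did (0.0268% higher and 0.0671% lower). No gene of the 54 had groups that did not overlap, as 0.0604% of all genes had. Unadjusted, 2 had a p under 0.05, mt-Nd3 and mt-Nd2, where 12.4% of all genes did. The nuclear median was -0.02 with 19 of 41 positive, and the mitochondrial median 0.13 with 13 of 13 positive. Over all genes tested the median was 0.005 and 51.2% were positive. mt-Nd3, a small core subunit of complex I, ran from 152 to 250.2 CPM with a median of 174 in FAAH S268D NASH-AA, against 108 to 196 CPM with a median of 141 in FAAH S268D NASH (0.30 ± 0.12, adjusted p = 0.314). Its copy Gm28438 holds most of its words, at 178 to 325 CPM in FAAH S268D NASH-AA, against 180 to 299 CPM in FAAH S268D NASH (0.08 ± 0.12, adjusted p = 0.824). limma-trend called 0, and mt-Nd3 passed with sample quality weights and within numbers 17 to 32. mt-Nd2, another core subunit, ran from 4501 to 6749 CPM with a median of 4996 in FAAH S268D NASH-AA, against 3695 to 5679 with a median of 4346 in FAAH S268D NASH (0.19 ± 0.09, adjusted p = 0.391).

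The interaction, the genotype effect on NASH-AA minus that on NASH, called 0 of 54 genes, as it called 0% of all genes. Unadjusted, 1 of 54 had a p under 0.05, Ndufb3 (-0.25 ± 0.12, adjusted p = 0.906), where 4.21% of all genes did, and limma-trend called 0. The estimate was negative for 41 of 41 nuclear genes with a median of -0.18, and for 10 of 13 mitochondrial genes with a median of -0.04. Over all genes tested 52.4% were positive, with a median of 0.011. The interaction uses the same WT NASH and FAAH S268D NASH libraries as the genotype comparison on NASH. Its signs are therefore not independent of those values. The difference between the 2 diets in the genotype effect was thus not detectable for any single gene. For Sdhb it was -0.24 ± 0.14 (adjusted p = 0.906).

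The balance of the genomes, the mean log2 CPM of the 13 mitochondrial genes minus that of the 41 nuclear ones, was 3.97 ± 0.219 in FAAH S268D NASH-AA, 3.81 ± 0.226 in FAAH S268D NASH, 3.97 ± 0.129 in WT NASH-AA and 3.93 ± 0.132 in WT NASH (SD, n = 8 each). Genotype on NASH moved it by -0.126, with 1 of 8 FAAH S268D libraries above the WT median, and on NASH-AA by 0.008. Diet moved it by 0.036 in WT and by 0.169 in FAAH S268D. All 4 differences were within 1 SD of the libraries of a group. The values -0.126 and 0.169 both rest on the mean of FAAH S268D NASH, which its lowest library pulls down. The medians were 3.942 in FAAH S268D NASH-AA, 3.855 in FAAH S268D NASH, 3.957 in WT NASH-AA and 3.96 in WT NASH. FAAH S268D NASH replicate 1 was lowest at 3.275, with 3.781 in the next library of its group, and in it Gm29216, a partial copy of mt-Co1 on chromosome 1, held 4861 CPM against 1506 CPM at the group's median.

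Around the complexes, 7 lists of pathway genes outside the 54 were read from the same fit. For genotype on NASH it called 2.89% of all genes higher and 6.29% lower, 9.18% in either direction. Of 39 other subunits tested, 3 were higher and 1, Ndufs5, was lower in FAAH S268D on NASH, with a median of 0.21. Among those higher were Atp5g1, of the membrane ring of ATP synthase (0.33 ± 0.10, adjusted p = 0.0326), and Ndufb11, an accessory subunit of complex I (0.28 ± 0.09, adjusted p = 0.0407). Of 45 assembly factors 4 were higher, Atpaf1, Ecsit, Cox16 and Timmdc1, with a median of 0.15. Of 78 proteins of the mitochondrial ribosome, which makes the 13 mitochondrial proteins, 4 were higher with a median of 0.13, Mrps31 with 0.29 ± 0.09 (adjusted p = 0.0291) among them. Of 28 genes that copy, transcribe and process mitochondrial DNA, 0 passed by limma-voom, 10 had an unadjusted p under 0.05, where 25.7% of all genes had one, and the median was 0.12. Tfam, which packs and transcribes mitochondrial DNA, had 0.17 ± 0.06 (adjusted p = 0.0753).

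Of 13 regulators of mitochondrial biogenesis 0 passed by limma-voom, 2 had an unadjusted p under 0.05, against the same 25.7% of all genes, and the median was 0.001. Of 16 citric acid cycle genes 1 was higher, where 2.89% of all genes were. It was Idh3b, a subunit of the NAD-dependent isocitrate dehydrogenase (0.25 ± 0.07, adjusted p = 0.0257). Of 8 carriers 1 was lower, where 6.29% of all genes were. It was Slc25a4, an ADP/ATP carrier (-0.44 ± 0.13, adjusted p = 0.0291). Slc25a4 had 7.71 ± 1.91 CPM in FAAH S268D NASH and 10.4 ± 2.06 CPM in WT NASH (SD, n = 8 each). On NASH-AA the only gene of these 7 lists past the threshold for genotype was Ndufs5, where 0.658% of all genes passed.

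For diet in wild type, 4 genes of the 7 lists passed, where 4.41% of all genes were called (1.44% higher and 2.97% lower). In the order named above, from other subunits to carriers, the lists held 39, 45, 78, 28, 13, 16 and 8 tested genes. The number of calls alone is thus no sign that the lists stand out. By limma-voom, 9, 11, 12, 13, 1, 4 and 2 of them had an unadjusted p under 0.05, where 24.4% of all genes did. Estimates were positive for 37, 37, 72, 27, 7, 14 and 4, where 51.1% of all genes were. These signs share libraries and are not independent. Cox18, which inserts subunits of complex IV, was higher (0.27 ± 0.08, adjusted p = 0.042), as were Twnk, the helicase of mitochondrial DNA (0.23 ± 0.06, adjusted p = 0.0353), and Fh1, fumarase (0.36 ± 0.10, adjusted p = 0.0403). Slc25a4 was lower (-0.50 ± 0.13, adjusted p = 0.029), at 7.25 ± 0.707 CPM in WT NASH-AA and 10.4 ± 2.06 CPM in WT NASH (SD, n = 8 each). For diet in FAAH S268D, 0 genes of the 7 lists passed by limma-voom, and at most 6 in a list (of 28 genes) had an unadjusted p under 0.05, where 12.4% of all genes had one. Fastkd1, which acts on mitochondrial RNA, came nearest with 0.29 ± 0.08 (adjusted p = 0.12), at 22.5 ± 1.97 CPM in FAAH S268D NASH-AA and 18.5 ± 2.92 CPM in FAAH S268D NASH.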

How the data were processed

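Whole-liver polyA RNA was extracted with TRIzol and sequenced after library preparation with a Tecan mRNA-seq kit, per the labels' protocols. The submitters' processing notes name Trim Galore 0.6.7, UMI-tools 1.1.2, STAR 2.7.10 and GRCm38. How reads were counted, with which annotation and whether by strand, the sources used here do not give, so reads shared by overlapping genes or near-identical copies cannot be assigned with certainty.

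The authors deposited gene-level estimated counts for all libraries in 1 table, without scaling. Spreadsheet software had altered many values, and 842 of the 1728 values of the 54 genes were restored by rule (grouped digits, times of day, fractions of a day). Of these, 2 had 2 possible originals, and the one nearer the gene's depth-scaled median was used. Values were then rounded. Because the table as deposited is not whole counts, limma-voom was used and no count model.

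The fit used limma 3.58.1 in R 4.3.3 on log2 CPM, with TMM factors from own code (30% of log ratios and 5% of levels trimmed), a prior count of 0.5 and 1 mean per group over all 32 libraries. A gene was tested if it reached the CPM of 10 counts in a median library in 8 libraries and 15 counts in all. Each of 4 contrasts of 2 groups, and their interaction, was adjusted over 14903 genes, with 0.05 as the threshold for an adjusted p-value. The procedure was tested on simulated data. In the shallowest library 1 CPM is 3.62 counts. Shares of counts carry no binomial interval, because totals include restored values.

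Values are given for each of the 54 genes past the threshold in a contrast of 2 groups, for those on chromosome 4, and for the 3 mitochondrial genes of highest mean CPM. Genes with the smallest unadjusted p in a complex, or among up to 4 in a list, could be named too, and any others named were chosen after their values were seen. The 54 genes, 7 pathway lists and 12 marker lists were chosen with earlier results of these data known. Not every gene of the lists is reported here by name. Positions are 1-based on GRCm38, from GENCODE. Alternatives tried were median-of-ratios factors, library sizes without the mitochondrial genome, other filters, a block for replicate or for library number range, limma-trend, sample quality weights, the other reading of uncertain values, 2 groups alone, and leaving out each library. Added after seeing the data were the 2 ranges of library numbers taken alone, and mitochondrial counts with those of their nuclear copies.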

Additional observations from a re-analysis of the deposited data

Results flagged for a closer look

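In groups of 8 libraries, 9 of 72 groups examined had an end value far from its nearest neighbour by Dixon's test. Independent groups would give about 1 in 20 by chance. The 72 share the same libraries, so the 9 cannot be read as an excess over that rate. WT NASH-AA replicate 1 was the highest of its group for Ndufa9 (105.7 CPM, next 93.5), Cox5b (183.1 CPM, next 157.6), Ndufb3 (47.91 CPM, next 41.6) and mt-Cytb (14117 CPM, next 12107). Without this library the single call for diet in wild type, Ndufb3, was lost. FAAH S268D NASH replicate 4 was the highest of its group for mt-Cytb (16016 CPM, next 12354) and mt-Nd4 (9087 CPM, next 6780). Uqcrfs1 stood at 177.1 CPM in FAAH S268D NASH-AA replicate 1, with 155.1 CPM next, and mt-Nd4 at 7620 CPM in WT NASH replicate 5, with 6293 CPM next. The mitochondrial minus nuclear mean log2 CPM was 3.275 in FAAH S268D NASH replicate 1, with 3.781 next. These are values only, and their cause was not tested.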

How the results depend on the processing

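For genotype on NASH, 10 of the 54 genes passed, against 4 with no filter on low counts, 1 with the 2 groups fitted alone, 2 within library numbers 1 to 16 and 0 within 17 to 32, and between 8 and 12 under the other alternatives. Leaving out each library gave 1 to 32. For genotype on NASH-AA, 0 passed, and 1 (Sdhb) with sample quality weights or the 2 groups alone. Leaving out each library gave 0. For diet in wild type, 1 passed, against 0 with no filter, a replicate block, limma-trend, library numbers 1 to 16 or 17 to 32, then 5 with the 2 groups alone and 32 with sample quality weights. Leaving out each library gave 0 to 11. For diet in FAAH S268D, 0 passed, and 1 (mt-Nd3) with sample quality weights or within numbers 17 to 32. The interaction had 0 calls under each alternative run. No direction of a called value reversed. The cause of these changes was not tested, except that fits to fewer libraries have less data. Sdhb on NASH passed in 12 of 13 alternatives, and not within numbers 17 to 32 (adjusted p = 0.461).

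Replicate numbers did not pair the samples. Over 48 pairs with the same number the median correlation of deviations was 0.005, against -0.013 over 336 other pairs, and 5 of 32 libraries correlated best with their own number. With the replicate block, genotype on NASH had 12 calls and diet in wild type 0. Depth limits mainly FAAH S268D NASH replicate 1.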

Other observations

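The 2 ribosomal RNAs of the mitochondrial genome were looked at after their values were seen. They had higher estimates than its 13 protein-coding genes in wild type on NASH-AA. mt-Rnr1 had a median of 509 CPM in WT NASH-AA and 313 CPM in WT NASH (0.73 ± 0.22, limma-voom adjusted p = 0.0537), and mt-Rnr2 had a log2 estimate of 0.69 ± 0.22 (adjusted p = 0.0634). For genotype on NASH, mt-Rnr1 had a median of 503 CPM in FAAH S268D NASH and 313 CPM in WT NASH (0.60 ± 0.22, adjusted p = 0.078), and mt-Rnr2 0.46 (adjusted p = 0.182). None of these passed the threshold. The libraries were made from polyA RNA, so these counts need not follow the amount of ribosomal RNA. As a share of the counts of the 13 protein-coding genes, the ribosomal RNA counts stood at 2.13% ± 0.547 in FAAH S268D NASH-AA and 1.78% ± 0.517 in FAAH S268D NASH. They stood at 1.98% ± 0.667 in WT NASH-AA and 1.33% ± 0.149 in WT NASH (SD, n = 8 each).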
